A study of Mus musculus with 4 samples.

Results

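The muscle-type nicotinic acetylcholine receptor genes were followed in NMuMG cells, an epithelial line from normal mouse mammary gland, with and without transforming growth factor beta. The set held 7 genes, chosen by symbol from the gene annotation: the receptor subunits Chrna1, Chrnb1, Chrnd, Chrne and Chrng, the receptor kinase Musk and the scaffold protein Rapsn. They were 7 of 14847 genes with 1 symbol at gene level, each with 1 transcript cluster, and 101 of the 229581 exon-level probesets. Chrna1 led the choice because of its difference between these same arrays, so its values are a description and carry no test. One group of cells received recombinant human TGF-beta1 at 1 ng/ml, and its control received none. Both grew in the same medium with 4.5 g/l glucose, 10% serum and 10 ug/ml insulin, and the series' design text gives 24 h of stimulation. RNA of each condition was summarised by the authors at gene level and at exon level, with 1 array per condition at each level, so no difference has a replicate check and no p-value was computed. NMuMG is 1 cell line, and these bulk values cannot tell more cells with a transcript from more transcript per cell.

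The muscle-type receptor is the ion channel with which skeletal muscle answers acetylcholine at the neuromuscular junction. Alpha (Chrna1), beta (Chrnb1) and delta (Chrnd) subunits form its ring together with gamma (Chrng) in fetal muscle or epsilon (Chrne) in adult muscle, and the alpha subunit holds most of the binding site for acetylcholine. The kinase MuSK, switched on by nerve-derived agrin through Lrp4, and the cytoplasmic scaffold rapsyn gather the receptors under the nerve ending. In muscle, the subunit genes are driven by myogenic helix-loop-helix factors, which bind E-boxes in their promoters and which Id proteins hold back.

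Of the 7 genes, 1 differed by at least 2-fold between the conditions. Chrna1 was 15.2-fold higher with TGF-beta, Chrnb1 was bright on both arrays and differed little, and the remaining 5 were dim on both arrays. The intensities are linear and as deposited, and each difference below is TGF-beta minus untreated on the scale of log2(intensity + 1). A gene counted as at level if either array reached 124.5, the median of all gene-level values, and a probeset if either array reached 264.5, the median at exon level. By this rule 2 of the 7 genes were at level, Chrna1 and Chrnb1. Of these 2, 1 was at least 2-fold higher and 0 lower, beside 2.28% higher and 8.7% lower among the 9159 genes at level. Chrna1 differed by 3.90 and Chrnb1 by -0.26, beside a median of -0.27 for all genes at level. Chrna1 was chosen for its difference and was at level through its TGF-beta value alone. The count of 1 in 2 therefore describes the choice and gives no shift of the receptor genes as a set.

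**Figure D1:**
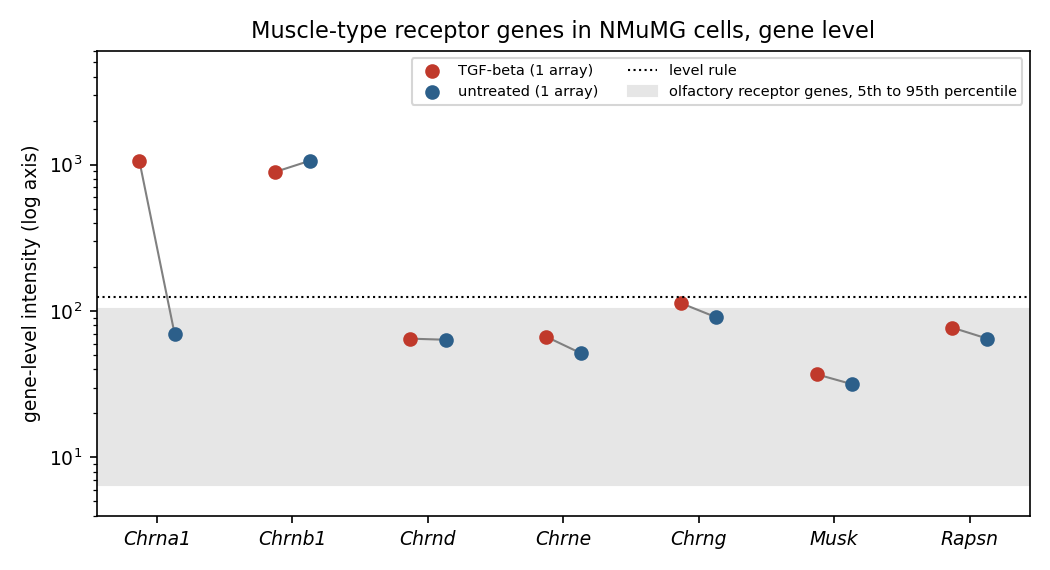
Gene-level intensity (log axis) of the 7 genes with TGF-beta (red, left) and untreated (blue, right), 1 array each; the dotted line is the level rule. The grey band runs from the 5th percentile of olfactory receptor genes on the untreated array (6.52) to their 95th percentile on the TGF-beta array (102.9). Their 95th percentile on the untreated array, 86.9, lies inside the band. Chrna1 lies at 1057 with TGF-beta and at 69.6 untreated, Chrnb1 lies above the rule on both arrays, and the other 5 genes lie below it on both.

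Olfactory receptor genes, which serve the nose, were used to show how bright a gene of another tissue appeared on these arrays. The 95th percentile of their clusters was 102.9 with TGF-beta and 86.9 in untreated cells. Probes differ in how well they bind, so values inside this range were not told from background and the range gives no order of genes. The untreated Chrna1 value lay above 91.6% of olfactory receptor genes, and its TGF-beta value lay above all of them. In untreated cells Chrna1 was therefore inside the range of background, and the exact size of its difference is uncertain.

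Chrna1 (transcript cluster 6887853) had an intensity of 1057 with TGF-beta, against 69.6 in untreated cells. This is a log2 difference of 3.90, which was rank 4 of the 9159 genes at level, a place that rests on the untreated value in the background range. Under the other scalings and pseudocounts the gene-level difference lay between 3.65 and 4.25, and the median over its probesets lay between 3.64 and 5.08. Its 12 exon-level probesets had values from 95.1 to 3989 with TGF-beta, and from 7.57 to 314 in untreated cells. All 12 were higher with TGF-beta, and 11 of them by at least 2-fold, beside 5.44% of all named probesets. The median difference was 4.84 with a standard deviation (SD) of 1.41 over the 8 probesets at level, and 3.64 with an SD of 1.61 over all 12. These SDs describe the spread between parts of the transcript and not between cultures.

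The sequences just upstream of the start sites show what the promoter of Chrna1 shares with those of receptor genes that did not differ in this way. Each window runs from 250 bases before to 50 bases after the start in RefSeq (GRCm38.p6), 5′ to 3′ on the gene's own strand, with E-boxes (CANNTG, which is also CANNTG on the opposite strand) in capitals. Shown are Chrna1, which was higher with TGF-beta, Chrnb1, which was bright on both arrays, and Chrng, which was dim on both.
Chrna1, chr2:73580289-73580588, minus strand: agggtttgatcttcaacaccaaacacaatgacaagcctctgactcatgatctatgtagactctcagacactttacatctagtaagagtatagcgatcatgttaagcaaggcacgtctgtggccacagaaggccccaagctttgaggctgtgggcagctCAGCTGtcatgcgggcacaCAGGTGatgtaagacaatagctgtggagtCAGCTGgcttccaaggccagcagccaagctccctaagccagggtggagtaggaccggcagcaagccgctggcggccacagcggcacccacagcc
Chrnb1, chr11:69795888-69796187, minus strand: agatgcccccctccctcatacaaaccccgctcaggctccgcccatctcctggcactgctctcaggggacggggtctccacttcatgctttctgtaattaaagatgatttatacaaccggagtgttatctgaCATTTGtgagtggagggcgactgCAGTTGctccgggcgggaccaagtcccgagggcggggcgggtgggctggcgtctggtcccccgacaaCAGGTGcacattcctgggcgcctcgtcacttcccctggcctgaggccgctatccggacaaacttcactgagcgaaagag
Chrng, chr1:87205561-87205860, plus strand: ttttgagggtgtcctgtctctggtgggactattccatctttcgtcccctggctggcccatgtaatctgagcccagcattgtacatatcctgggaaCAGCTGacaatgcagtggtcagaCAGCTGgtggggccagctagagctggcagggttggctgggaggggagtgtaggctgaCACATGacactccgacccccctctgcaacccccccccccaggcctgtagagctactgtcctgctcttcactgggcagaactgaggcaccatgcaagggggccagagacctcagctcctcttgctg

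Each of these windows held 3 E-boxes, and 17.6% of 32851 RefSeq promoter windows of the same length held at least 3. Of the 3 in the Chrna1 window, 2 were of the form CAGCTG, which is itself an E-box and one that myogenic factors bind. The Chrng window also held 2 of this form and the Chrnb1 window held 0, while 1.90% of all windows held at least 2. The letters CAGAC, searched on both strands as a short sequence that Smad proteins bind, occurred 2 times in the Chrna1 window and 1 time each in those of Chrnb1 and Chrng, where the match in Chrng overlapped an E-box. At least 2 matches were present in 16.2% of all windows. The windows of Chrne and Musk held 1 and 3 E-boxes, of which 1 each was CAGCTG. Such matches describe the letters of these windows only. Chrng carried the same number of E-boxes of both kinds as Chrna1 and had 113 with TGF-beta, against 90.5 in untreated cells.

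The probesets of Chrna1 were divided by their TGF-beta value, at a limit of 1000, into a brighter and a dimmer set. With TGF-beta 7 probesets lay between 1025 and 3989, against 34.1 to 314 in untreated cells, and their differences ran from 3.33 to 5.81. The other 5 lay between 95.1 and 310 with TGF-beta, against 7.57 to 124 in untreated cells, and their differences ran from 0.96 to 3.49. The limit lay above every untreated value of the gene, so in the brighter set every TGF-beta value lay above every untreated value by construction. In the dimmer set the highest untreated value, 124, lay above the lowest TGF-beta value, 95.1, which belonged to another probeset. Probeset 5181982 had the largest difference of the gene at 5.81, from 2211 with TGF-beta and 38.3 untreated, and was rank 3 of 118109 named probesets at level. Its untreated value lay below 125.6, the 95th percentile of untreated olfactory receptor probesets, so the size and the rank are uncertain. Probeset 4474630 was the brightest with TGF-beta at 3989, against 140.6 untreated, a difference of 4.82. Probesets 4351728, 4391123 and 5566122 differed by 4.96, 4.96 and 4.87. The smallest difference was 0.96 in probeset 4658732, at 240.0 with TGF-beta and 122.8 untreated, which was below the level rule on both arrays.

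**Figure D2:**
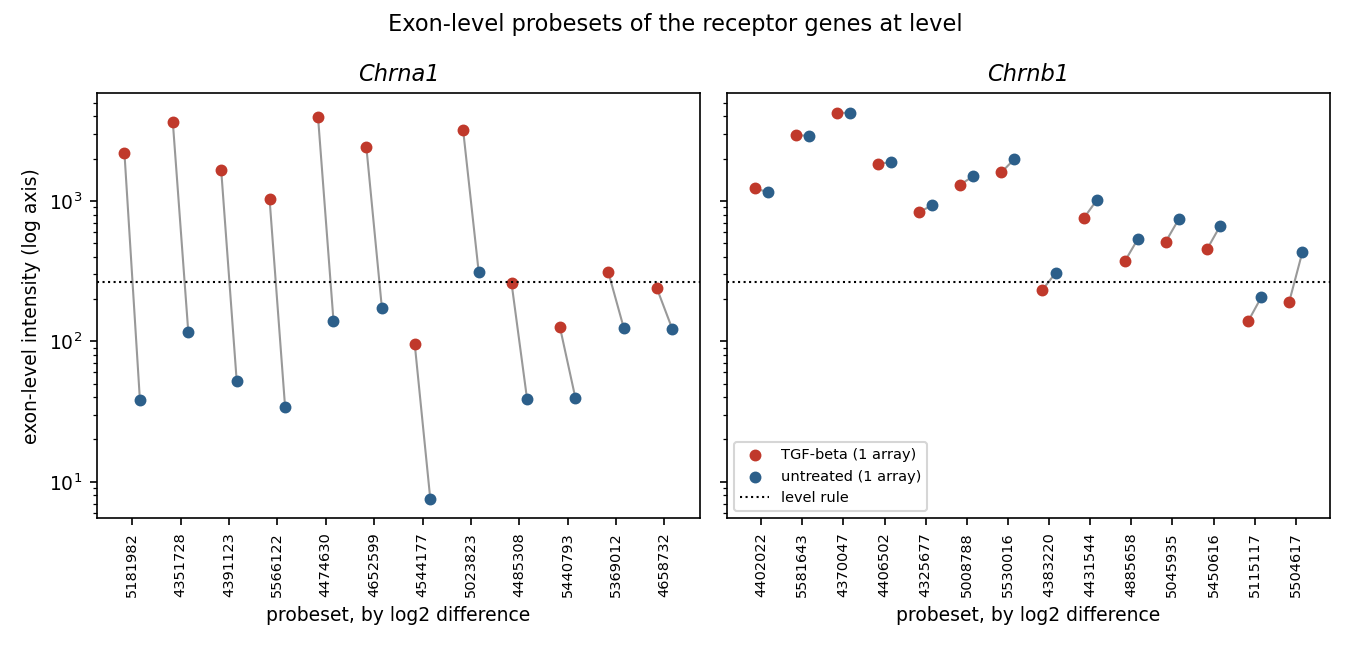
Exon-level intensity (log axis) of the 12 probesets of Chrna1 and the 14 of Chrnb1, ordered by log2 difference, with TGF-beta (red, left) and untreated (blue, right), 1 array each; the dotted line is the level rule of 264.5. All 12 Chrna1 probesets are higher with TGF-beta, by 0.96 to 5.81, while those of Chrnb1 differ by -1.17 to 0.11.

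Each probeset was then set against the other probesets of its gene. The splicing index subtracts from a probeset's difference the median over the other probesets at level of that gene, where 5 or more were at level, and an index of 1 or more in either direction counted as a departure. Of the 8 indexed Chrna1 probesets 3 departed, all on the lower side, beside 3.64% of 108360 indexed probesets of all genes (1.62% on the lower side). The number on each side depended on the base: with the gene-level difference as base, 3 were on the higher side and 1 on the lower. Of the 8, 7 were at level through their TGF-beta value alone, with untreated values from 34.1 to 173.6, and 5 of the untreated values lay within the range of olfactory receptor probesets. The index of Chrna1 therefore compares differences that are measured mostly against background, and its size is uncertain. Probeset 5369012 departed most, with an index of -3.55, from 310 with TGF-beta and 124 in untreated cells. It stayed on the lower side in all 9 alternatives, with an index between -3.60 and -2.47. Probeset 5023823 had an index of -1.53 and departed in 7 of the 9, and probeset 4652599 had -1.08 and departed in 5. These 2 were the probesets with the highest untreated values of the gene, 314 and 173.6. On the linear scale they were higher with TGF-beta by 2865 and 2237 units, inside the 991 to 3849 units of the other bright probesets, whereas probeset 5369012 was higher by 186. Probeset 5181982 had an index of 1.00, just under the rule, and passed it in 6 of the 9 alternatives. The sources used here give no positions of the probesets within the gene, so no exon is named.

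The spread between the probesets of Chrna1 was wide. Of 8038 genes with at least 5 probesets at level, 25 had an SD larger than its 1.41, and the median SD was 0.33. Of the 40 genes among these whose median difference was at least 2, Chrna1 included, 1 had a larger SD, and the median was 0.68. These SDs are given as a description, since that of Chrna1 comes from untreated values mostly in the background range, whereas most other genes were at level on both arrays.

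Chrnb1 (transcript cluster 6789343), the beta subunit, had 890 with TGF-beta and 1065 in untreated cells. Its difference was -0.26, close to the median of -0.27 over all genes at level, and it was 0.04 after a smooth curve of difference against brightness was subtracted and 0.03 after quantile normalization. Its 14 probesets had values from 138.7 to 4242 with TGF-beta, and from 205.7 to 4241 in untreated cells. Of them 3 were higher and 11 lower with TGF-beta, with a median difference of -0.32 and an SD of 0.34 over the 13 at level. One probeset, 5504617, was at least 2-fold lower, at 191.1 with TGF-beta and 431.6 untreated (-1.17), and its index of -0.91 did not pass the rule. None of its 13 indexed probesets departed, nor did any in the 9 alternatives, and its SD lay at percentile 52.7 of all genes. The beta subunit gene was thus at level on both arrays, and the alpha subunit gene on the TGF-beta array alone.

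The other subunits were below the level rule on both arrays. Chrnd, the delta subunit, had 64.8 with TGF-beta and 63.7 in untreated cells, a difference of 0.02. Chrne, the epsilon subunit of adult muscle, had 67.0 with TGF-beta and 51.4 untreated (0.37). Chrng, the gamma subunit of fetal muscle, had 113 with TGF-beta and 90.5 untreated (0.32), and was the one of these that passed the 95th percentile of olfactory receptor genes on both arrays. The genes of the clustering proteins were below the level rule as well. Musk had 37.0 with TGF-beta and 31.7 untreated (0.22), and Rapsn had 77.1 with TGF-beta and 64.8 untreated (0.25). All 5 differences were above 0, with a median of 0.25, beside 0.21 for all 5688 named genes below the level rule and 0.06 for the 718 olfactory receptor genes. After subtraction of that curve the 5 lay between -0.13 and 0.24, with Chrnd at -0.13.

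**Figure D3:**
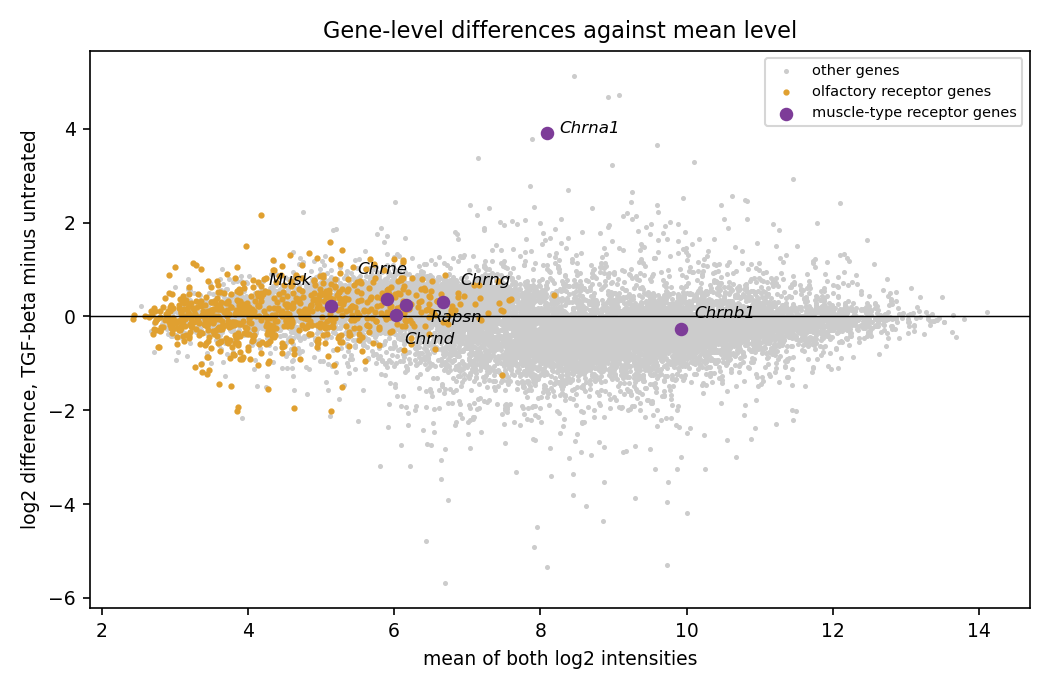
Log2 difference (TGF-beta minus untreated) of 14847 genes at gene level against the mean of both log2 intensities; the 7 receptor genes are purple and the olfactory receptor genes orange. Chrna1 stands at 3.90, while Chrnb1 lies near the middle of genes of its brightness and the 5 dim genes lie among the olfactory receptor genes.

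At exon level the 5 dim genes had 75 probesets, with a median intensity of 71.8 with TGF-beta and 62.4 in untreated cells. Of these 75, 9 were at least 2-fold higher with TGF-beta (12%) and 2 lower (2.67%). Among all named probesets the shares were 5.44% higher and 11% lower, and among 2153 olfactory receptor probesets they were 6.36% and 5.62%. Among the named probesets below the level rule they were 7.88% and 10.2%. The median difference of the 75 was 0.23, with Chrnd at 0.31, Chrne at 0.29, Chrng at 0.34, Musk at 0.08 and Rapsn at 0.17. No more than 3 probesets of any of these genes were at level, so no splicing index was formed. The brightest were probeset 4421953 of Chrne, at 1100 with TGF-beta and 768.8 untreated, and probesets 4823568 and 5315245 of Chrng. Probeset 4823568 had 1047 with TGF-beta and 729.2 untreated, and probeset 5315245 had 1006 with TGF-beta and 470.2 untreated. Without them, the median of the other 12 probesets of Chrne was 69.6 with TGF-beta and 41.6 untreated, and that of the other 14 of Chrng was 114.8 with TGF-beta and 97.8 untreated.

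**Figure D4:**
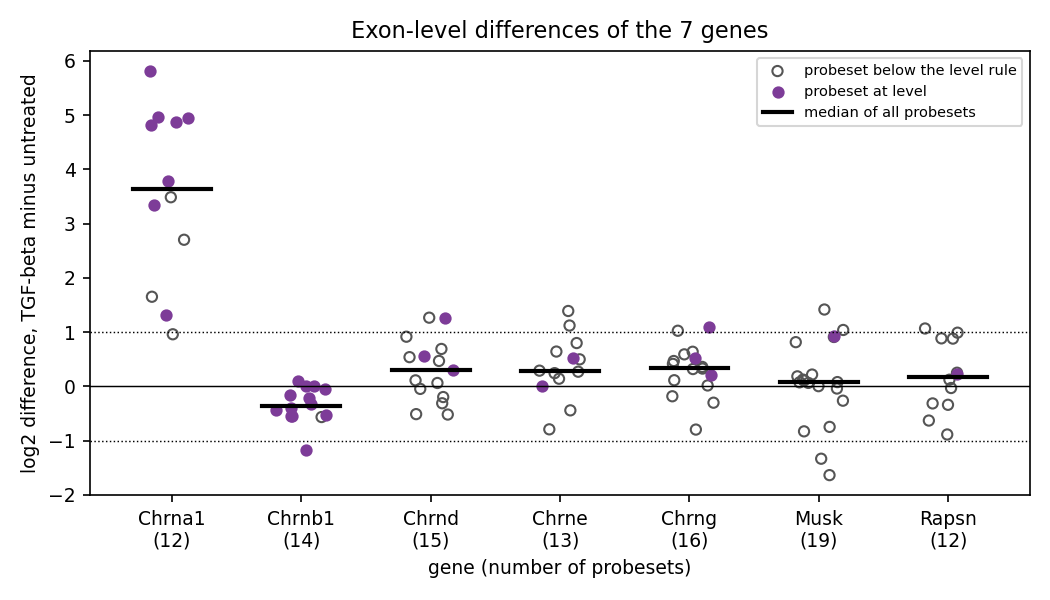
Log2 difference (TGF-beta minus untreated) of every exon-level probeset of the 7 genes; filled points are at level, open points are below the level rule, bars are medians of all probesets of a gene, and dotted lines mark 2-fold. The bar of Chrna1 is at 3.64, that of Chrnb1 at -0.36 and those of the other genes between 0.08 and 0.34.

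The genes whose pair of values lay nearest to that of Chrna1 were sought among 8923 genes with at least 3 probesets at level, by the distance between the 2 log2 intensities. The likeness rests on 2 arrays and on intensities of different probes, with untreated Chrna1 in the background range, so it says only which genes had a similar pair of deposited values. The nearest was Nt5e, an ecto-nucleotidase, at a distance of 0.30, with 881 with TGF-beta and 63.1 untreated. Nat8l, which makes N-acetylaspartate, followed at 0.86, and the metalloprotease Adam12 at 0.95, with 846 with TGF-beta and 130.2 untreated. The hyaluronan synthase Has2 lay at 1.01 and Hsd11b2, which inactivates glucocorticoids, at 1.14, with 539 with TGF-beta and 106.4 untreated. The same 5 genes were nearest after quantile normalization.

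Genes that work with the receptor were counted next, in lists that were not drawn from the size of their differences but were written with earlier results of these data known. Of 11 neuronal nicotinic subunits, which form the receptors of neurons, 9 were measured and 2 were at level, with 0 higher and 0 lower by 2-fold. Chrnb4 had 132.8 with TGF-beta and 96.3 untreated (0.46, or 1.15 in its 1 probeset at level), and Chrna2 had 119.5 with TGF-beta and 131.3 untreated (-0.13). The 7 below the level rule included Chrna3 at 0.58 and Chrna7 at 0.16. All 5 muscarinic receptors, the G-protein-coupled receptors for acetylcholine, were below the level rule. Chrm2 had 106.7 with TGF-beta and 32.0 untreated (1.71, 1 probeset), and Chrm5 had 78.0 with TGF-beta and 29.1 untreated (1.39), and both were below the level rule on both arrays. By gene-level values and this level rule, Chrna1 was the sole measured acetylcholine receptor gene at level and at least 2-fold different. With probeset medians in place of gene-level values 1 neuronal subunit, Chrnb4, passed as well, and with the olfactory receptor percentile as level rule 1 muscarinic receptor, Chrm2, did.

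Of 8 genes that make, carry or break down acetylcholine, 7 were measured and 2 were at level, neither past 2-fold. These were the choline transporter Slc44a1, at 2501 with TGF-beta and 2141 untreated (0.22), and Prima1, which anchors acetylcholinesterase in membranes (0.45). Chat, which makes acetylcholine, had 59.2 with TGF-beta and 50.6 untreated, and Ache, which breaks it down, had 36.1 with TGF-beta and 39.7 untreated. Of 11 receptor chaperones and Ly6-type modulators 9 were measured, 6 were at level and 1 was lower. That gene, Psca, a small surface protein, had 56.1 with TGF-beta and 168.6 untreated (-1.57). Lynx1, which binds and damps nicotinic receptors, had 116.6 with TGF-beta and 212.1 untreated. Its difference was -0.86, or -1.55 as the median of its 3 probesets at level. With probeset medians 2 genes of this list were lower. Ric3, a chaperone of nicotinic receptors, was below the level rule (-0.05).

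In the list of genes that act with Musk and Rapsn in clustering the receptor, many of which serve all cells, 12 of 15 were measured and 11 were at level, beside 61.7% of all genes, with none past 2-fold and a median of -0.16, or -0.02 after subtraction of the curve. Agrn, the gene of agrin, had 1384 with TGF-beta and 1696 untreated (-0.29), and its 45 probesets had a median of -0.31 with an SD of 0.21. Dok7, the adaptor that activates MuSK, had 186.0 with TGF-beta and 122.4 untreated (0.60), and Dnaja3, a co-chaperone that binds MuSK, was at -0.88. Lrp4, the agrin receptor, was below the level rule, at 90.9 with TGF-beta and 60.8 untreated. In the dystrophin and utrophin complex, which links the muscle cell membrane to matrix, 9 of 15 genes were measured and 3 were at level, none past 2-fold. Utrn, which lies under the receptors in muscle, had 815 with TGF-beta and 704 untreated (0.21), and Dmd had 12.8 with TGF-beta and 12.6 untreated.

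**Figure D5:**
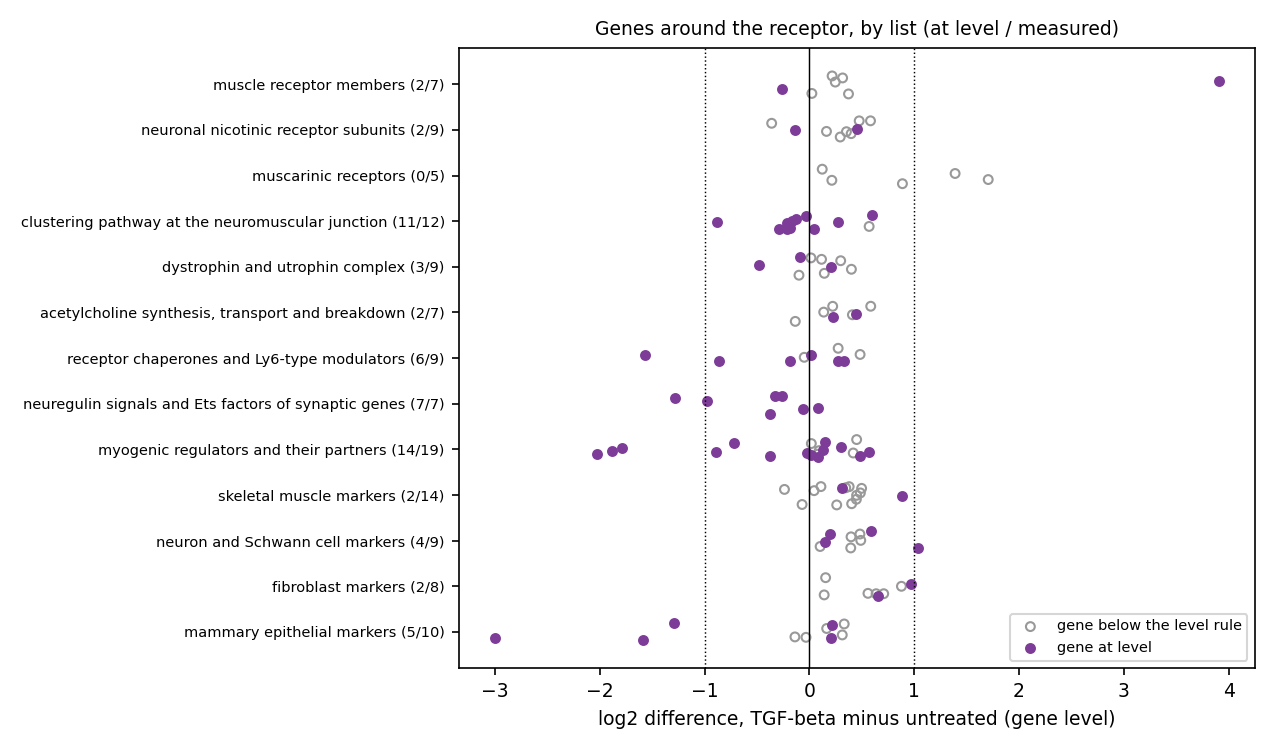
Gene-level log2 difference (TGF-beta minus untreated) of the genes in each list, with the numbers at level and measured; filled points are at level, open points below the level rule, and dotted lines mark 2-fold. Chrna1 at 3.90 is the point farthest to the right, and Krt19 at -2.99 the point farthest to the left.

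No listed regulator of synaptic genes was at least 2-fold higher with TGF-beta. Among all genes at level 2.28% were higher and 8.7% lower. Of 10 genes of neuregulin signalling and Ets factors 7 were measured, all at level, with 0 higher and 1 lower. The lower gene was the receptor Erbb3, at 74.2 with TGF-beta and 181.7 untreated (-1.28). The ligand Nrg1 had 1250 with TGF-beta and 2460 untreated (-0.98, or -1.02 as the median of its 14 probesets at level). With probeset medians 2 genes of this list were lower. Of 20 myogenic regulators and partners 19 were measured and 14 were at level, with 0 higher and 3 lower. The 3 were the inhibitors Id2 (-2.03), Id1 (-1.89) and Id3 (-1.78), and Id2 had 1429 with TGF-beta and 5819 untreated. With probeset medians 4 genes of this list were lower, since Eya1 passed as well (-0.72 at gene level, or -1.08 as the median of its 10 probesets at level). Myod1, a master factor of muscle, had 124.7 with TGF-beta and 126.8 untreated, at the edge of the level rule, and Myog, Myf5 and Myf6 were below it (102.9, 111.6 and 55.8 with TGF-beta, against 75.0, 83.2 and 55.1 untreated). The helix-loop-helix partners Tcf3 and Tcf12, which pair with myogenic factors, were bright on both arrays and differed by 0.08 and 0.02.

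Most measured markers of muscle were below the level rule on both arrays. Of 23 skeletal muscle genes 14 were measured and 2 were at level, beside 61.7% of all genes. None was past 2-fold, and the summed intensity of the 14 was 1384 with TGF-beta and 1094 untreated. Not measured were Actc1, Tnnt1, Ttn, Neb and all listed myosin heavy chains (Myh1, Myh2, Myh3, Myh4 and Myh8). Acta1, skeletal actin, had 283 with TGF-beta and 227 untreated (0.32), Tnnc2, a troponin of fast muscle, had 144.5 with TGF-beta and 78.0 untreated (0.88), and Ckm, the muscle creatine kinase, had 122.3 with TGF-beta and 89.3 untreated. Neuron and Schwann cell markers had 4 of 9 measured genes at level and 1 higher, the microtubule protein Map2, at 673 with TGF-beta and 327 untreated (1.04, or 0.99 as the median of its 17 probesets at level), and a sum of 1448 with TGF-beta and 940 untreated. Snap25, a protein of nerve endings, had 45.4 with TGF-beta and 42.2 untreated, and Sox10 had 157.9 with TGF-beta and 141.8 untreated. Fibroblast markers had 2 of 8 at level and 0 higher, with a sum of 1041 with TGF-beta and 625 untreated, and Col1a1 at 389 with TGF-beta and 199 untreated (0.97, or 1.32 after quantile normalization). Col1a2, the other one at level, differed by 0.65. Below the level rule were Pdgfrb (0.88), Thy1 (0.71), Pdgfra (0.64) and Col3a1 (0.56). Dcn and Lum, also below it, had the smallest differences of the list (0.16 and 0.14). They lay at 51.7 and 22.7 with TGF-beta, against 46.3 and 20.5 untreated. Every measured fibroblast marker was thus higher with TGF-beta, most of them by less than 2-fold from dim values. Of 13 mammary epithelial markers 10 were measured and 5 were at level, with 3 lower, Krt19 (-2.99), Elf3 (-1.58) and Cdh1 (-1.29). Their sum was 12728 with TGF-beta and 18208 untreated, of which Krt18 alone held 9785 and 8494. Krt18, a keratin of simple epithelia, was bright on both arrays, while Epcam, which marks epithelial cells, had 62.2 with TGF-beta and 68.5 untreated and was in the background range. The sums of these lists rest in part on single bright genes, such as Map2 and Krt18. They rest also on genes below the level rule, whose median difference over all named genes was 0.21. They therefore give no amount of a cell type. The part of other cell types in the Chrna1 difference was not tested.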

How the data were processed

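RNA of NMuMG cells was measured on arrays, and the authors deposited linear intensity values per transcript cluster (gene level) and per core probeset (exon level), per the labels. How the background was corrected and the values normalized, by which software and on which genome build, is not given in the sources used here. Each condition had 1 array per level, and both levels were taken to describe the same cultures and were not used as replicates. The number of arrays limits the precision. Genes were named from GEO's platform annotation, updated through RefSeq names of GRCm38.p6. At gene level 14996 clusters had 1 symbol, 1019 several and 7317 none, and only those with 1 were used, with the brightest cluster kept where a symbol had several.

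Differences of log2(intensity + 1), level rules, splicing indices and promoter matches were computed with Python 3.11.15, pandas 2.3.3 and the lowess of statsmodels 0.14.6. The calculation of the index was checked on simulated data with less spread between the probesets of a gene than these arrays had. That check covers the calculation only and not the departures of Chrna1. The 7 genes and the lists were chosen with earlier results of these data known. Named genes were the 7, the 5 nearest to Chrna1, and in each list those past 2-fold and up to 4 with the largest differences, beside defining markers chosen by role and genes chosen after their values were seen (Chrm2, Chrm5 and single bright probesets). Alternatives were 3 scalings, pseudocounts of 0 and 16, other level rules, other bases of the index, and probeset medians in place of gene-level values.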

Additional observations from a re-analysis of the deposited data

How the results depend on the processing

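Chrna1 was higher with TGF-beta in every alternative run, and it was the one gene of the 7 past 2-fold in each. Its difference lay between 3.65 and 4.25 from gene-level values and between 3.64 and 5.08 over its probesets. Chrnb1 kept a difference below 0 with other pseudocounts, from its probesets and after centring (-0.12), and lay just above 0 after quantile normalization and after subtraction of the curve of difference against brightness. Among the 7 genes 3 probesets departed from their gene. Without a level rule 18 did, 9 of them in Chrna1, and with the 95th percentile of olfactory receptor probesets (156.9) as rule 10 did, all in Chrna1. Both rules admit dimmer probesets, by their construction. Of the values and counts that describe single genes and lists, 219 moved by less than the spread between probesets, or by no more than 1.5 times, and 10 moved by more; all 10 were list counts of 0 to 2 genes. No paired analysis was possible because each group had 1 array per level. Untreated Chrna1 and both values of Chrnd, Chrne, Musk and Rapsn were within the 95th percentile of olfactory receptor genes, and those of Chrng just above it.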

Other observations

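Bright probesets inside dim genes differed from bright probesets elsewhere. All 10 probesets at level in the 5 dim receptor genes were higher with TGF-beta, with a median difference of 0.52. The same was seen in 29 of 31 such probesets of olfactory receptor genes (median 0.68) and in 30 of 34 of skeletal muscle markers (median 0.63), in genes below the level rule. Over all named genes below the level rule at gene level, 79.8% of 5819 probesets at level were higher with TGF-beta (median 0.48), beside 31347 of 104565 in genes at level (median -0.27). The level rule takes the larger of the 2 intensities, which admits probesets for being high with TGF-beta. With the rule applied to the untreated value alone, 70.3% of 3966 were still higher in the dim genes (median 0.31), beside 27.7% of 101325 in genes at level, and 8 of 8 in the receptor genes. After subtraction of the curve of difference against brightness, the medians were 0.60 and -0.08. The count of the 5 receptor genes is thus close to that of genes of other tissues, and a cause was not tested.

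The protein-coding genes on either side of Chrna1 in RefSeq differed little. Wipf1, an actin regulator, had 1208 with TGF-beta and 1048 untreated (0.21), and Chn1, a Rac regulator, had 267 with TGF-beta and 246 untreated (0.12). Beside Musk, the lysophosphatidic acid receptor gene Lpar1 had 661 with TGF-beta and 318 untreated (1.05), while Musk itself lay in the background range. Mef2d, a partner of myogenic factors, differed between the 2 levels of summary. It had 109.5 with TGF-beta and 204.3 untreated at gene level (-0.89), but its 13 probesets at level had a median difference of 0.04 with an SD of 0.18.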
